A study of Ovis aries and Bos taurus with 6 samples.

Results

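The small RNA of milk extracellular vesicles (EVs) from sheep was described in 3 libraries of the 6 in the series, those of the Ordos fine wool breed. The labels describe these 3 sheep as females in mid lactation and give no treatment. EVs, membrane particles shed by cells, were isolated with a precipitation kit, which does not sort them by the cell they came from, and their RNA was made into TruSeq small RNA libraries, 1 column of counts each. The sheep table has 685 rows, each with a listed sequence and its length, and all of them were kept. Of these, 84 carry a sheep miRBase name (miRBase is the miRNA registry) and 601 carry only a serial name such as novel1_mature.

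miRNAs are short RNAs that guide Argonaute proteins to messenger RNAs. Bases 2 to 8 from the 5′ end, the seed, pair with the target, so miRNAs that share a seed are grouped as a family. Milk carries miRNAs inside EVs, and miR-148a is known as an abundant miRNA of milk and of lactating mammary epithelium. Many of the serial rows list sequences of well known conserved miRNAs, so 88 of them were given 76 conserved names here from textbook knowledge. These names were given after the values were seen, and the row name is printed with each. In a bulk preparation, fewer vesicles from a cell type and less of a miRNA per vesicle cannot be told apart.

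The sequences that carry most of the counts, or the contrasts between the libraries, are shown as listed in the sheep table, with T for U and with the seed in capitals. The first 3 share the seed of miR-148a, the next 5 share that of let-7, and the others are miRNAs described below.
miR-148a: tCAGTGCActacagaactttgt
miR-148b (novel29_mature): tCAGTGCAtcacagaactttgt
miR-152: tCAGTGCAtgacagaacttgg
let-7b: tGAGGTAGtaggttgtgtggt
let-7c: tGAGGTAGtaggttgtatggtt
let-7a: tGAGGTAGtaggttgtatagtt
let-7i: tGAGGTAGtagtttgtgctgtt
let-7f: tGAGGTAGtagattgtatagt
miR-423-5p (novel1_mature): tGAGGGGCagagagcgagacttt
miR-375 (novel289_mature): tTTGTTCGttcggctcgcgtga
miR-122 (novel7_mature): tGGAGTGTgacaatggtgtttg
miR-486-5p (novel89_mature>novel257_mature): tCCTGTACtgagctgccccgagg
miR-1 (novel162_mature>novel169_mature): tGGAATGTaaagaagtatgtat
miR-34c (novel23_mature): aGGCAGTGtagttagctgattgc
miR-34b (novel141_mature>novel158_mature): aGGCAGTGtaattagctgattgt
miR-30e-5p (novel6_star): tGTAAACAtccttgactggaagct
miR-92a, shorter (novel168_mature): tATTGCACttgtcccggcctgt
miR-92a, longer (novel3_mature): tATTGCACttgtcccggcctgtt

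The libraries held 1110632, 2078695 and 1073914 counts in replicates 1, 2 and 3. Rows above 0 numbered 533, 515 and 482, and rows with at least 10 counts 347, 347 and 304. Replicate 1 stood apart from the other two. Across the 206 rows with a mean of at least 100 counts outside miR-148a, which are not independent replicates, Spearman's rho was 0.606 for replicates 1 and 2, 0.549 for replicates 1 and 3, and 0.860 for replicates 2 and 3. The mean was taken over these same libraries, so a row high in 1 of them alone could pass, which bears on these rho values. Shares are given per library. The miR-148a share, the top 10 share and the counts of stable and variable rows are also given without replicate 1.

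miR-148a was the most abundant row in every library, at 217525, 1322230 and 407936 counts. These were 19.6% of all counts in replicate 1 (Wilson 95% interval 19.5 to 19.7), 63.6% in replicate 2 (63.5 to 63.7) and 38.0% in replicate 3 (37.9 to 38.1), a mean of 40.4% ± 22.1 (SD, n = 3). Without replicate 1 the mean was 50.8%. The libraries thus differed far beyond counting error in this 1 row, and its high count accounts for the larger total of replicate 2: outside miR-148a the totals were 893107, 756465 and 665978. The row with the same seed that came next, miR-148b, had 1652, 7508 and 2372 counts, and miR-152 had 95, 95 and 27. Counted from 1 at the 5′ end, miR-148b differs from miR-148a at C9T and T10C, and miR-152 at C9T, T10G and T20G. All of these positions lie outside the seed, and miR-148a held 99.4% of the counts of its seed class.

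Because shares sum to 100%, every other row was diluted by miR-148a. Taking that row out of the denominator enlarged every other share 1.24-fold in replicate 1, 2.75-fold in replicate 2 and 1.61-fold in replicate 3. The order within a library cannot change by this, but the order of the means did, since the 3 libraries were enlarged unequally. With miR-148a in the list as rank 1, its removal alone would lift each row by 1 rank. miR-100 (novel9_mature), of the miR-10 and miR-100 families, moved from rank 9 with miR-148a in the list to rank 6 among the other rows, and let-7i moved from 13 to 7. miR-486-5p, high in replicate 1 only, moved from 7 to 11, and miR-122 from 8 to 10. Shares from here on are percentages of the counts outside miR-148a unless stated otherwise.

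**Figure D1:**
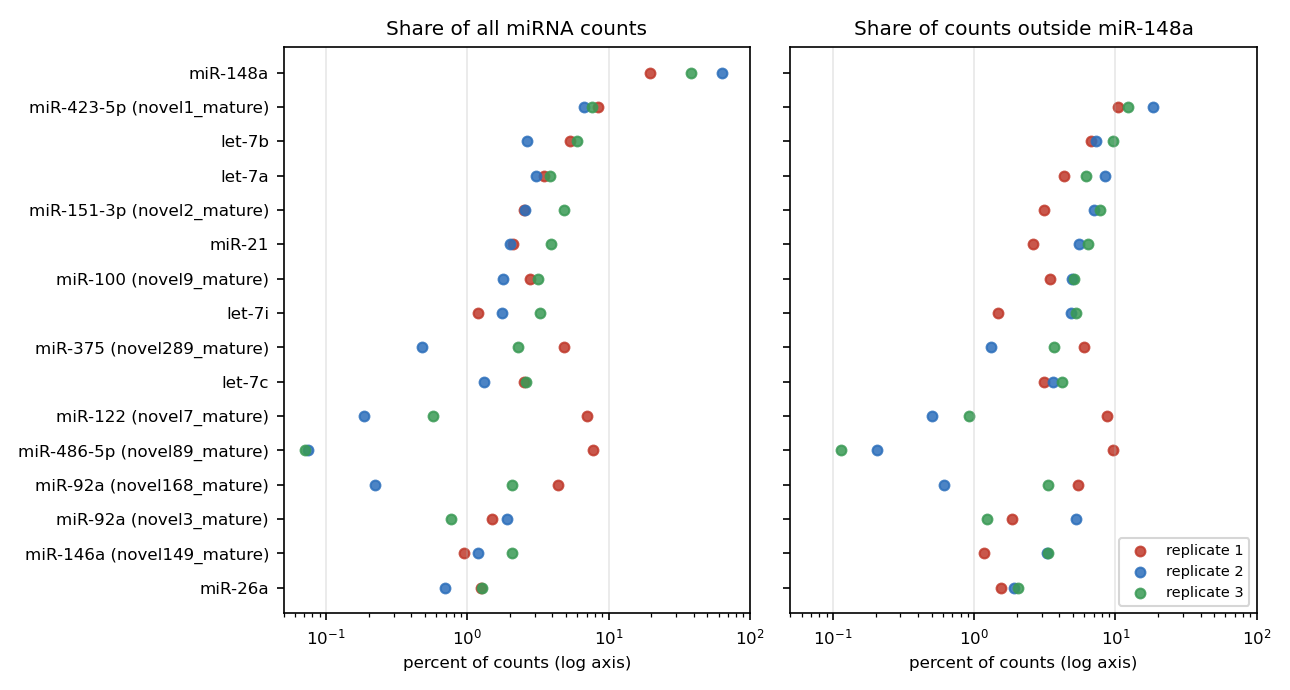
Share of each library's counts (percent, log axis) for miR-148a and for the 15 other rows of highest mean share, 1 point per sheep library, over all counts (left) and over counts outside miR-148a (right, where miR-148a has no point). The points of let-7b, let-7c, miR-100 and miR-26a draw together when miR-148a is left out, while miR-486-5p and miR-122 stay spread, with replicate 1 the highest.

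miR-423-5p led the remaining rows in every library, at 10.4%, 18.4% and 12.3% (13.7% ± 4.15, SD, n = 3). It is made from 1 precursor with miR-423-3p, and its count exceeded that of miR-423-3p 6.78-fold, 10.5-fold and 9.67-fold. let-7b followed at 6.67%, 7.30% and 9.63% (7.87% ± 1.56), and let-7a at 4.35%, 8.45% and 6.17% (6.33% ± 2.05). miR-151-3p (novel2_mature) stood at 3.12%, 6.99% and 7.75%, and miR-21, a widely expressed miRNA, at 2.63%, 5.52% and 6.34%. In both, replicate 1 lay below the other libraries. miR-100 had 3.44%, 4.92% and 5.11%, let-7i 1.47%, 4.82% and 5.23%, and let-7c 3.12%, 3.63% and 4.20%. miR-146a (novel149_mature), known from immune cells, had 1.18%, 3.26% and 3.32%, and miR-26a 1.55%, 1.90% and 2.03%. These rows shared an order in which replicate 1 was lowest.

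Other abundant rows had a different order. miR-375, known from endocrine cells and some epithelia, had 6.03%, 1.31% and 3.69%, highest in replicate 1 and lowest in replicate 2. miR-7, listed with it as endocrine, had another order: its larger row (novel19_mature>novel143_mature) had 0.213%, 0.547% and 1.05%, and both of its rows were highest in replicate 3. The endocrine list summed to 6.26%, 1.87% and 4.87%. miR-122, the most abundant miRNA of liver, had 8.73%, 0.506% and 0.920%, from counts of 77983, 3831 and 6125. miR-486-5p, abundant in red blood cells, had 9.60%, 0.204% and 0.114%, from counts of 85723, 1541 and 757. So the rows that ranked among the 15 most abundant include some that owe that place to 1 library. Without replicate 1, the 10 rows most abundant in the other libraries held 64.9% of the counts outside miR-148a. The 10 rows chosen over all 3 libraries held 57.7% ± 6.71, and 61.8% and 61.4% in replicates 2 and 3.

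The counts were concentrated in few rows. The 10 most abundant rows outside miR-148a held 49.96%, 61.8% and 61.4%, and the top 20 held 77.5%, 78.2% and 75.4% (77.1% ± 1.47). It took 50 rows to reach 90% of the mean share outside miR-148a and 231 to reach 99%. Of the 685 rows, 369 were above 0 in all 3 libraries, and 209 were above 0 in 1 library only, with a median of 8 counts.

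The sheep names from miRBase covered a minority of the remaining counts, 27.7%, 39.7% and 41.1% (36.2% ± 7.35). Only 6 of the 15 most abundant rows had one. Of the 84 named rows, 75 were above 0 in all 3 libraries and 7 in 1 library only, 26 had a mean of at least 1000 counts and 14 a mean under 10. The 88 serial rows given a conserved name held 66.0%, 55.1% and 51.1%. Rows with neither kind of name held 6.33%, 5.15% and 7.83%.

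Grouping by the exact seed gave 520 seeds, of which 430 were held by 1 row and 66 belonged to named rows. The 29 serial rows that carry the seed of a named row added 7.29%, 9.16% and 8.55% to those families. Over all counts, the miR-148a class held 19.7%, 64.0% and 38.2%, and the let-7 class 13.6%, 9.69% and 17.0%. With miR-148a left out, the let-7 class of 12 rows was the largest, at 16.9%, 26.6% and 27.4% (23.6% ± 5.84). Its means with and without miR-148a (13.4% and 23.6%) rank the libraries differently: replicate 2 was lowest with it and second without it.

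Within the let-7 class, let-7b was first in replicates 1 and 3, at 39.5% and 35.2% of the class, and let-7a was first in replicate 2, at 31.8%. let-7i was 8.70% of the class in replicate 1, and 18.1% and 19.1% in replicates 2 and 3. Compared with let-7b, let-7c differs at G17A, let-7a at G17A and G19A, let-7i at G12T, T18C and G19T, and let-7f at G12A, G17A and G19A, all 3′ of the seed. Members that differ at 1 or 2 bases can share reads, depending on how the reads were counted, so the split among let-7b, let-7c and let-7a is less certain than their sum. let-7b and let-7f are listed at 21 bases and the other 3 at 22.

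The next seed classes were miR-423-5p (5 rows, of which novel1_mature held nearly all), miR-151-3p (1 row), miR-92a (5 rows; 7.35%, 5.88% and 4.59%), miR-21 (1 row), miR-100 with miR-99a (2 rows; 3.60%, 5.03% and 5.24%), miR-375 (1 row) and miR-122 (3 rows; 8.81%, 0.556% and 0.940%). The let-7, miR-151-3p, miR-21 and miR-100 classes were lowest in replicate 1. The miR-92a, miR-375 and miR-122 classes were highest there. The miR-30 class, led by novel20_mature, had 6 rows and a small spread, at 2.31%, 2.28% and 1.80%, as had the miR-26 class, at 1.63%, 1.99% and 2.09%.

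**Figure D2:**
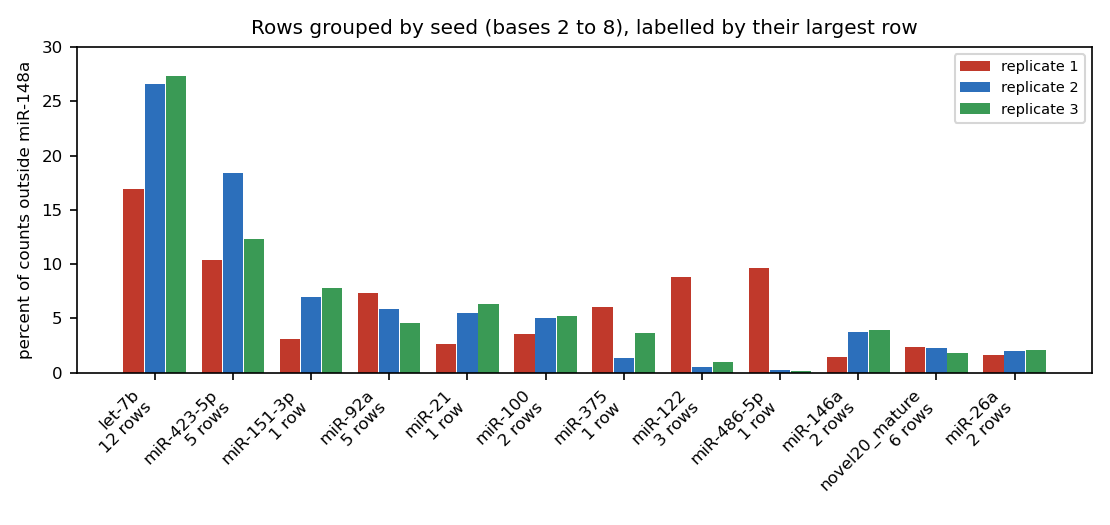
Percent of counts outside miR-148a in the 12 seed classes of highest mean share, 1 bar per sheep library, with the largest row of each class and its number of rows under the bars. The let-7 bars stand at 16.9% in replicate 1 and at 26.6% and 27.4% in the others, and the miR-122 and miR-486-5p bars are high in replicate 1 only.

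miRNAs cut by the enzyme Dicer are mostly 21 to 23 bases long. Length here is that of the sequence listed for each row, not of the reads, so it does not measure the size of the vesicle RNA. Rows listed at 21 to 23 bases held most of the counts. Over all counts, 22 bases held 56.3%, 78.0% and 65.6%, but miR-148a, itself 22 bases long, made up much of that. Outside it, 22 bases held 45.6%, 39.6% and 44.5% (43.2% ± 3.22), 23 bases 33.7%, 40.5% and 31.3%, and 21 bases 13.9%, 13.8% and 16.0%. In replicate 2 the 23-base rows outweighed the 22-base rows, and in the other libraries the order was the opposite. The count-weighted mean of the listed lengths was 22.2, 22.3 and 22.1 bases.

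Counting rows instead of reads gave another picture. Rows of 18 to 20 bases were 259 of the 685, 5 of them with a miRBase name, yet they held 3.10%, 2.08% and 4.20% of the counts. Of the 112 rows of 18 bases, 1 had a name of either kind, against 33 with a miRBase name among the 171 rows of 22 bases. A first base of T (U in the RNA), which Argonaute proteins are known to favour, was held by 237 rows but by 80.8%, 76.5% and 73.9% of the counts. The 66 rows with a GC content of at least 80%, none with a name, held 0.938%, 0.382% and 0.312%.

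**Figure D3:**
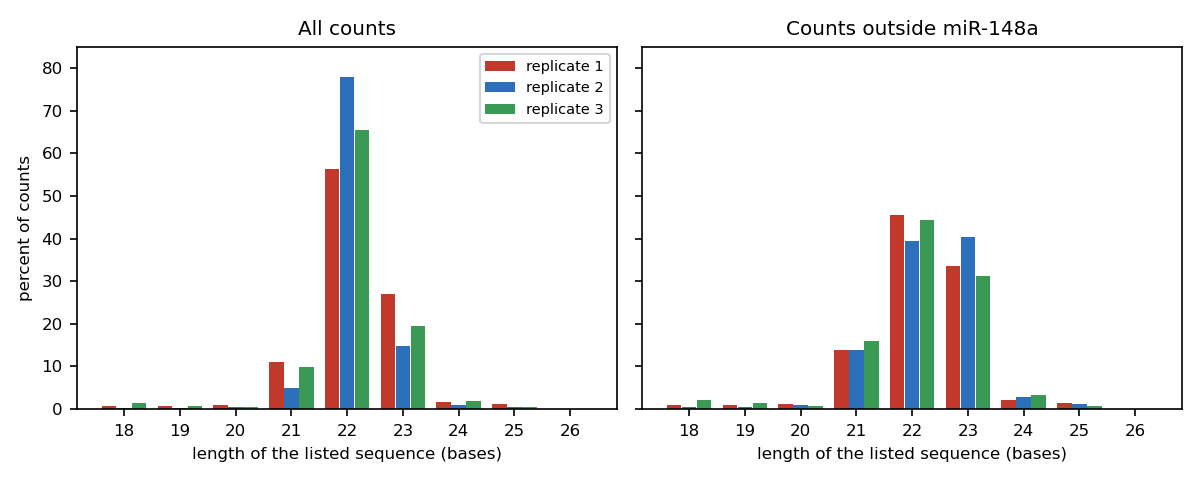
Percent of counts by the length of the listed sequence, 18 to 26 bases, over all counts (left) and outside miR-148a (right), 1 bar per sheep library. The 22-base bars fall from 56.3%, 78.0% and 65.6% to 45.6%, 39.6% and 44.5% when miR-148a is left out.

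Stability was read from rows with a mean of at least 100 counts, where counting alone gives a coefficient of variation (CV, the SD over the mean) of about 10% at that mean. A row was called stable at a CV of at most 25% over the 3 shares outside miR-148a. Of the 206 rows, 33 were stable, or 16.0% of those examined. The stable rows included 18 of the 43 with a miRBase name and 8 of the 90 with neither kind of name. The median CV was 64.8% over all 206, 32.5% over the rows with a miRBase name and 90.4% over the rows with neither name. The rows with a name were also deeper, at a median mean count of 1114 against 198.8 for those with neither, and the part of depth in this difference was not tested.

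miR-30e-5p was the most even row, at 0.726%, 0.754% and 0.702%, with a CV of 3.57%. miR-125b followed, at 0.711%, 0.692% and 0.813% (CV 8.78%), then miR-221 (9.01%), novel45_mature (10.8%) and miR-27a (11.0%). The others of the 10 lowest were novel20_mature, which carries the miR-30 seed (12.0%), miR-10b (12.7%), novel40_mature (13.5%), miR-26a (13.7%) and miR-128 (novel304_mature, 14.2%). With 3 libraries, a 95% interval for an SD runs from 0.521 to 6.29 times its value if the shares are normal, so the order among these rows is not resolved.

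Which rows looked stable depended on the denominator. With miR-148a kept in, 11 rows were stable and 1 of the 33 was among them, miR-204-5p (novel13_mature). let-7a then had a CV of 10.9% instead of 32.5%, and miR-423-5p 11.2% instead of 30.3%. The deposited TPM, in which each library has its own constant, called 18 rows stable, 2 of them shared with the 33. TMM and DESeq2 size factors, which scale by the bulk of the rows, called 31 and 32, sharing 24 and 25 of them. Without replicate 1, 73 rows were stable, against 46 without replicate 2 and 44 without replicate 3. Each time the mean of 100 counts was taken anew over the libraries kept, so the rows examined were not the same 206.

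A row was called variable where its highest share was at least 10 times its lowest, with a library at 0 set to a floor of 3 counts. There were 67 such rows, or 32.5% of the 206. They took in 20 of the 116 rows with a name of either kind and 47 of the 90 with neither. Replicate 1 held the highest value in 44 of the 67, replicate 2 in 6 and replicate 3 in 17. Over all 206 rows, replicate 1 was the highest in 104, or 50.5%. A row high in 1 library alone could pass the filter on the mean count through that library. An example is novel185_mature, at 334, 0 and 0 counts, which is then both variable and highest in replicate 1. The filter thus bears on both tallies by library, and its part was not tested. Without replicate 1, 18 rows were variable, against 73 without replicate 2 and 56 without replicate 3. The filter was applied anew to the libraries kept each time, so these are not counts out of the same 206 rows.

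**Figure D4:**
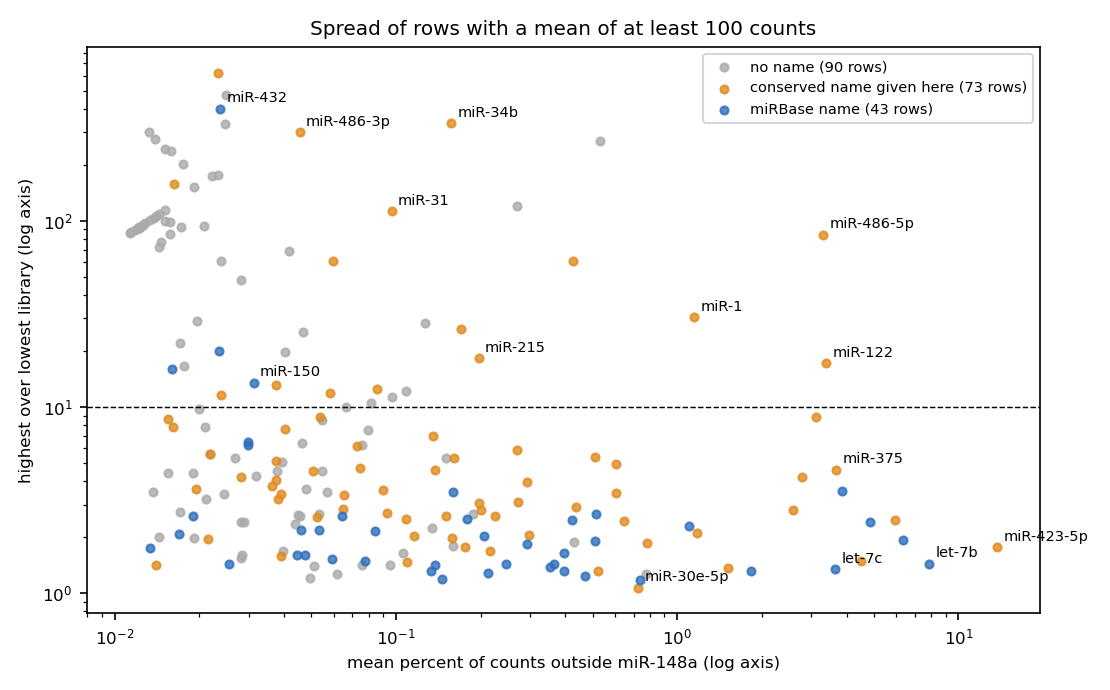
Mean percent of counts outside miR-148a against the ratio of the highest to the lowest library (both log axes) for the 206 sheep rows with a mean of at least 100 counts, coloured by kind of name, with the 10-fold line dashed and libraries at 0 set to 3 counts. Of the 67 rows above the line, miR-486-5p, miR-122 and miR-1 lie at mean shares over 1%.

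Of the 12 rows of widest ratio, 4 had a name of either kind. Their order depends on the floor, since a count of 0 was set to 3 while a count of 1 was kept. For example, novel261_mature, at 626, 0 and 0 counts, had a ratio of 177 over the floor of replicate 2 and fell outside the 12. miR-34b, of the miR-34 family known from ciliated epithelium and the p53 response, had 8, 1292 and 1998 counts, a 335-fold range (counting interval 170 to 777). miR-34c, which shares its seed, moved the same way, at 105, 4120 and 4780 counts, and so did miR-31 (novel126_mature), at 16, 649 and 1345, both chosen after their values were seen. A shorter miR-34c row, novel180_mature, had 1, 1 and 465 counts, a ratio of 624 (111 to 24680). These rows were low in replicate 1. miR-432 went the other way, at 537, 81 and 1 counts, a ratio of 400 (71.6 to 15850). miR-486-3p (novel106_mature>novel297_mature), from the precursor of miR-486-5p, had 1207, 5 and 3 counts, a ratio of 300 (102 to 1457), so both arms of that precursor were high in replicate 1. Of rows with no name, novel426_mature had 48, 1122 and 9597 counts, a 268-fold range (202 to 364), and was the only one of the 12 widest to reach 1% of a library, at 1.44% in replicate 3. The other 7 of the 12 (novel332_mature, novel323_mature, novel154_mature, novel104_mature, novel329_mature, novel364_mature and novel527_mature) had 1 library or more at 0 or 1 counts and at most 560 counts in any, with the highest in replicate 1 for each.

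Several lists of tissue miRNAs had their highest sum in replicate 1. The red blood cell list, for which only miR-486 of 3 names had a row (miR-451 and miR-144 had none), came to 9.73%, 0.204% and 0.114%, and both of its rows were variable. The liver list, miR-122 alone, is given above. Striated muscle miRNAs, with a row for 4 of 6 names, came to 3.38%, 0.153% and 0.246%, and 3 of 3 examined rows were variable. In replicate 1 the sum was mostly miR-1, which had 3.19%, 0.139% and 0.105%. A miR-133a row under the mean of 100 counts (novel147_mature) had 21, 13 and 31 counts, highest in replicate 3. miR-1 had 28528, 1052 and 698 counts and miR-206 (novel131_mature) 807, 52 and 100, both highest in replicate 1, while miR-499 (novel109_mature) had 646, 13 and 699. The endothelial list, both arms of the miR-126 precursor, came to 0.593%, 0.138% and 0.198%. Stromal miRNAs, led by miR-143 (0.818%, 0.416% and 0.305%), came to 0.888%, 0.463% and 0.376%. The other examined stromal row, miR-199a-3p, was stable and highest in replicate 3, at 0.0621%, 0.0453% and 0.0695%. The part of these lists in the spread of the other rows was not tested.

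Leukocyte miRNAs had no single order. Their sum, 2.62%, 4.40% and 4.64%, was lowest in replicate 1 and was carried by miR-146a and miR-146b (novel170_mature; 0.208%, 0.500% and 0.605%). Of the 9 rows examined, 6 were highest in replicate 1, beside 50.5% of all 206 rows. Among the 6 were miR-181a, at 0.462%, 0.372% and 0.352%, and miR-150, a lymphocyte miRNA chosen after its values were seen, at 708, 64 and 39 counts. Of the 9, miR-150 was variable and miR-181a was stable.

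The sums of some families were more even, though their rows were not always so. The miR-200 family, a mark of epithelial cells, came to 0.854%, 0.724% and 0.700%, a CV of 10.9%, with 2 of its 3 examined rows stable, miR-200c (0.393%, 0.285% and 0.382%) and miR-200b (0.300%, 0.210% and 0.229%). The third, miR-141 (novel75_mature), had 0.132%, 0.230% and 0.0883%. A further row in the sum, miR-429 (novel160_mature), was too low in mean count to be examined. It was far from even, at 261, 0 and 2 counts in replicates 1, 2 and 3. Of the 5 names on this list, 4 had a row. The other epithelial miRNAs (miR-203, miR-205, miR-182, miR-183 and miR-96) came to 0.104%, 0.227% and 0.146%, with none of 3 examined rows stable or variable. The miR-10 and miR-100 families came to 5.91%, 6.37% and 6.74%, a CV of 6.53%, with 4 of 6 rows stable and none variable. Within them the rows had no single order: 3 were highest in replicate 1, 1 in replicate 2 and 2 in replicate 3. miR-125a (novel16_mature), at 10191, 2494 and 2313 counts, was highest in replicate 1, as was miR-10a, at 0.275%, 0.0784% and 0.123%. The 5 listed miR-30 rows summed to 1.46%, 1.47% and 1.13%, with 1 of 4 examined rows stable and a median CV of 36.1% among those 4. The miR-26 and miR-29 families came to 1.90%, 2.39% and 2.57%, with 2 of 4 rows stable. The miR-17-92 clusters, mostly miR-92a, came to 7.35%, 6.16% and 4.86%, with none of 5 rows stable. Neuronal miRNAs came to 1.86%, 1.22% and 1.31%, with 3 of 5 rows stable and miR-9 (novel4_mature) the largest, at 1.11%, 0.638% and 0.594%. Among the 206 rows, 16.0% were stable and 32.5% variable. Every listed row has a name of either kind, and of the 116 examined rows with one, 25 were stable and 20 variable. The counts for the lists are described beside these backgrounds without a test.

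The miRNAs of the imprinted DLK1-DIO3 region had 36 rows for 26 of 43 names. They came to 0.991%, 0.649% and 0.671%, with miR-127 the largest, at 0.530%, 0.335% and 0.320%. Of the 9 rows examined, 7 were highest in replicate 1, beside 50.5% of all 206 rows. The variable ones were miR-432, described above, and miR-485-5p, chosen after its values were seen, at 345, 52 and 16 counts.

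Several miRNAs were listed as more than 1 row, alike but for bases at an end. There were 30 such groups, of 62 rows. In miR-92a, the 2 rows printed above differ by 1 final T. The 22-base row held 74.4%, 10.5% and 72.9% of the pair, so replicate 2 carried mainly the 23-base row and the others the 22-base row. Each row alone had a CV of 77.2% or 77.3%, and their sum had 23.0%. In miR-204-5p the 22-base row (novel12_mature) also had its smallest part in replicate 2, at 54.8%, 8.04% and 55.6% of the pair. The sum of that pair had a CV of 29.1%, between those of its rows (19.0% and 78.1%). In miR-181b the 23-base row was the larger in every library, and the 22-base row made up 26.6%, 5.29% and 21.3%. In let-7e the 22-base row was the larger in every library, and the 21-base row (novel367_mature) had a larger part in replicate 2 than in the others, at 2.10%, 29.8% and 2.79%. For miR-24 the 20-base row (novel352_mature) had its largest part there too, at 3.52%, 36.3% and 2.27%. Its 22-base row (novel10_mature) was largest in replicate 3, at 24.3%, 7.81% and 39.2%. Replicate 3 also had the largest part of a 21-base miR-9 row (novel139_mature), at 1.87%, 5.28% and 13.9%. The same held for the 20-base miR-34c row, at 0.943%, 0.0243% and 8.87%. In miR-128 the parts differed less, with its 21-base row at 6.08%, 6.13% and 8.65%. These groups, apart from miR-92a and miR-128, were chosen after their values were seen. Of 11 groups with at least 2 rows of a mean of 100 counts, the sum had a lower CV than every such row in 5.

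**Figure D5:**
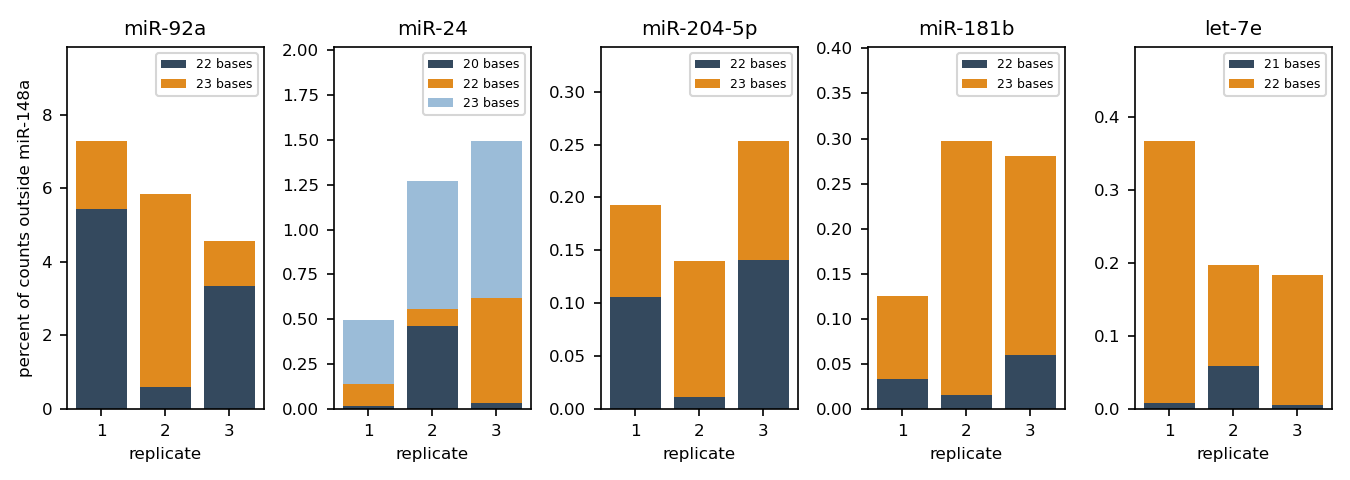
Percent of counts outside miR-148a in each sheep library for 5 miRNAs listed as rows of different length, stacked by length, each panel with its own axis from 0. In replicate 2 the 23-base row makes up most of miR-92a, miR-204-5p and miR-181b, and the 20-base row of miR-24 and the 21-base row of let-7e are larger than in the other libraries.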

How the data were processed

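Per the labels' protocols, EV RNA from milk of 3 sheep was extracted with a column kit and ligated to adapters at both ends, reverse transcribed and amplified by PCR. The deposited counts are whole reads per miRNA row, with the listed sequence and a length column. The deposited TPM values of the authors equal the count times 1 constant per library (0.101, 0.0647 and 0.0622), whose meaning the sources do not give. Cutadapt 1.14 and Bowtie are named in the submitters' processing notes. The following were not given in the sources used here: genome build, miRBase release, counting tool. Near-identical sequences may share reads. The cow libraries were not used here.

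Shares were computed per library from the counts with Python 3.11.15 (pandas 2.3.3), over all rows and without miR-148a, and given as mean ± SD over 3 libraries. With 1 group there was no test between groups. Rows with a mean of at least 100 counts were called stable at a CV of at most 25% and variable at a ratio of at least 10, and a count of 0 was set to 3 counts, which is 0.000336%, 0.000397% and 0.00045% of the counts outside miR-148a in replicates 1, 2 and 3. Intervals and floors cover counting error only, as PCR reads are not independent molecules, and ligation favours some miRNAs. TMM (edgeR 4.0.16) and DESeq2 1.42.0 size factors were used as alternative scalings only. Other alternatives were the TPM, filters, miRBase names only, summed end variants, a 6-base seed and each library left out. The stable and variable rules were also run on counts simulated with counting error alone and with large drops planted in single libraries. That setting lacks the spread between libraries seen here, so it does not bear on how far these calls would recur.

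Rows named were the 15 of highest mean share, the 10 of lowest CV, the 12 of largest ratio, the 8 top seed classes and up to 3 members per list. Some rows were named beyond that rule. Among them were let-7f, miR-10a, miR-429 and the miR-133a row, and those marked as chosen after their values were seen. That rule named serial rows by row name and seed. The conserved names depart from it and were read by hand from the listed sequences, as no miRNA sequence table was used. The members and lists were chosen with earlier results of these data known.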

Additional observations from a re-analysis of the deposited data

How the results depend on the processing

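No paired analysis was possible because only 1 group was described. Leaving out 1 library in turn gave a miR-148a share of 28.8% to 50.8%, 44 to 73 stable rows and 18 to 73 variable rows. The filter on the mean count was applied anew to the libraries kept, so the rows examined changed. The top 10 rows outside miR-148a, chosen anew each time, held 57.8% to 64.9%. With the miR-148a counts kept, the top 10 held 72.4%, 32 rows reached 90%, miRBase names held 61.1%, 22-base rows 66.6% and the let-7 class 13.4%, and 11 rows were stable. With miRBase-named rows only, miR-148a held 62.7% of counts, the top 10 held 85.7%, 14 rows reached 90%, 22-base rows held 47.1% and the let-7 class 63.7%. The deposited TPM left 18 stable rows. A mean of at least 1000 counts left 18 stable and 10 variable rows, and a mean of at least 10 gave 234 variable rows. TMM and DESeq2 size factors gave 66 variable rows each. Of the 10 rows of lowest CV, 10 stayed at or below 25% with DESeq2 size factors, 9 with TMM, 0 with the TPM and 0 with miR-148a kept. Of the 12 rows of widest ratio, 7, 9 and 8 stayed at 10 or more without replicates 1, 2 and 3.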

Other observations

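Rows with no name included groups that share short runs of letters. GTAGCTCAG, letters found in the D arm of many tRNA genes, was searched on the listed strand and lay in 7 of the 685 rows (1.02%), none with a name. These rows held 0.129%, 0.162% and 1.00% of the counts outside miR-148a in replicates 1, 2 and 3, and novel195_mature, at 57, 273 and 5079 counts, held 0.763% of replicate 3. GTGGCTCAG lay in 2 rows (0.292%). GGCGGCGG lay in 17 rows (2.48%), which held 0.254%, 0.177% and 0.131%. A match is a description of the letters and gives no origin for the row.

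The tail of rows seen in 1 library was uneven between the libraries. Of 34 rows with at least 100 counts in 1 library and 0 in the others, 30 lay in replicate 1, 1 in replicate 2 and 3 in replicate 3. None had a name of either kind, and their median length was 19 bases against 21 over all rows. The highest was novel261_mature, with 626 counts in replicate 1. Between replicates 2 and 3 the 90 rows with neither name had a Spearman's rho of 0.767, against 0.116 between replicates 1 and 2 and -0.04 between replicates 1 and 3. For the 116 rows with a name the values were 0.884, 0.740 and 0.740. Rows high in replicate 1 alone passed the mean of 100 counts through it, such as novel185_mature at 334, 0 and 0 counts. They lie at or near 0 in the other libraries, so the filter bears on this contrast. Its part was not tested.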
